A study of Mus musculus with 22 samples.

Results

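The 9 genes described here, Cgas, Sting1, Tbk1, Irf3, Ifih1, Mavs, Eif2ak2, Stat2 and Isg15, encode sensors of nucleic acids in the cytosol, the adaptors and kinases behind them and a part of the interferon response they lead to. They are 9 of the 23033 mouse genes in the count table. The set was chosen by one measured value: Sting1 was picked because its p was the smallest of all genes that passed the filter on low counts in the cerebellum when circTulp4-deficient (CD) mice were compared with wild-type (WT) mice, and the other members were added because circular RNAs have been linked to these sensors. The CD minus WT values of the members in the cerebellum are therefore given as a description, without a test.

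The study compared WT mice with a CD line in which CRISPR-Cas9 mutagenesis had changed the splice acceptor that forms the circular RNA of Tulp4 from AG to TC, leaving the linear mRNA that encodes the protein. The line descends from 1 mosaic founder male and was kept on a C57BL/6 background. RNA from hippocampus, cortex and cerebellum was measured by CelSeq2, which counts the 3′ ends of polyadenylated RNA. Libraries came from 3 WT and 4 CD hippocampi, 4 WT and 4 CD cortices, and 4 WT and 3 CD cerebella of 8 mice, each identified by a number in the labels. Age and sex of these mice are not given in the sources used here, and the labels name no agent.

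Cytosolic DNA is bound by cGAS, which makes a cyclic dinucleotide that activates STING1 (the product of Sting1), an adaptor in the endoplasmic reticulum. STING1 recruits the kinase TBK1, and TBK1 phosphorylates the transcription factor IRF3, which switches on type I interferon. Long double-stranded RNA is detected by MDA5 (the product of Ifih1), which signals through the mitochondrial adaptor MAVS to the same kinase and factor, and by PKR (the product of Eif2ak2), a kinase that stops translation. Secreted interferon acts through STAT2, which helps bind the interferon-stimulated response element, and one of its classical targets is the ubiquitin-like protein ISG15. In the brain, microglia are known for a high STING1 content, and circular RNAs have been described as ligands or inhibitors of some of these sensors.

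The promoters of the members differ in the element through which interferon acts. Promoter sequences of 8 members, all but Sting1, were taken from RefSeq (GRCm38.p6). For Sting1 no promoter sequence was at hand, so its promoter was not examined. Each sequence ran from 250 bases before to 50 bases after the start. Both strands were searched for the core of the interferon-stimulated response element, that is GAAA, any 2 bases and GAAA again. The element stood in 4 of these 8, against 3.44% of 32851 promoters in the same table. In Isg15 and Stat2 it lay before the start, and these windows are shown because both genes belong to the interferon response. Those of Ifit1, Ifit3 and Ifit3b, which are targets of interferon and differ most between libraries below, are shown beside them. All are written on the strand of the gene with the element in capitals.
Isg15, chr4:156200871-156200900, minus strand: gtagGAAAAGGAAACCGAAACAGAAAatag
Stat2, chr10:128270272-128270289, plus strand: ctggTTTCAGTTTCcttt
Ifit1, chr19:34640785-34640813, plus strand: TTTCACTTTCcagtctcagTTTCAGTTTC
Ifit3, chr19:34583369-34583386, plus strand: taagTTTCACTTTCctct
Ifit3b, chr19:34607765-34607782, plus strand: taagTTTCACTTTCctct
The Isg15 window held 3 overlapping copies read along the gene, and the other windows held the element on the opposite strand. In Eif2ak2 and Ifih1 the element began 18 and 32 bases after the start. It was not found in the windows of Cgas, Tbk1, Irf3 and Mavs. The gamma-activated site, TTC and GAA with any 3 bases between them, stood only in Eif2ak2 among these 8 members, against 8.30% of all promoters.

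Library totals over the genes ran from 2757684 to 8847481 counts, and levels are given in cpm, a gene's counts relative to the total of its library after scaling by TMM over the 22 libraries. The genotypes were checked by the Tulp4 transcript whose first exon lies inside the circle. Its counts in excess of those of a transcript that shares its other exons are given in cpm without TMM scaling. They were 2.71 to 3.69 cpm in WT hippocampus and 0.42 to 0.57 cpm in 3 of the CD hippocampi. They were 1.45 to 6.03 cpm in WT and 0.14 to 1.30 cpm in CD cortex, and 3.12 to 13.7 cpm in WT and 0.60 to 2.62 cpm in CD cerebellum. Some rest on few counts, such as 4 in WT cortex of mouse m244, against 5, 1, 8 and 3 in the CD cortices. The library labelled CD hippocampus of mouse m118 stood at 3.98 cpm, which goes against its label. The CD minus WT differences of the members in hippocampus, alone or averaged with cortex, are therefore given with and without it. Counts of members past a threshold between genotypes include it. The markers of each region matched the labels, with cerebellar markers summing to 6241 to 7062 cpm in cerebellum and at most 419 cpm elsewhere. Choroid plexus markers, 7 genes of the tissue that secretes cerebrospinal fluid, summed to 8324 cpm in the hippocampus of WT mouse m244 and 4213 cpm in that of CD mouse m190, against 134 to 1231 cpm in the other hippocampi and at most 124 cpm in cortex and cerebellum. Haemoglobin and other blood markers summed highest in mouse m118 in every region.

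Sting1 was about as abundant in the cerebellum of CD mice as in the forebrain of either genotype, whereas it was lower in the cerebellum of WT mice. Its levels in WT cerebellum were 4.99, 4.69, 4.25 and 4.39 cpm in mice m162, m164, m240 and m244. In CD cerebellum they were 13.5, 8.07 and 9.07 cpm in mice m118, m190 and m242. The lowest CD library therefore lay above the highest WT library, as it did for 2.46% of the 10138 genes tested there. The group means were 4.58 ± 0.33 cpm (SD, n = 4) in WT and 10.2 ± 2.87 cpm (SD, n = 3) in CD. The fitted CD minus WT difference was 1.14 (SE 0.24) on the log2 scale, that is 2.21-fold, and chose the gene. It was 0.90 without CD mouse m118, whose library was the highest, and 1.28 without CD mouse m190. Since tissue RNA was measured in bulk, more cells that express Sting1 and more Sting1 RNA per cell cannot be told apart, here or in any result below.

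The count table lists 4 Sting1 transcripts, and the values above are those of the transcript with the highest total. The transcript with the next different count profile was lower and did not separate the genotypes. It had 1.42 ± 0.55 cpm (SD, n = 4) in WT cerebellum, between 1.04 and 2.22 cpm, and 1.94 ± 0.40 cpm (SD, n = 3) in CD cerebellum, between 1.61 and 2.38 cpm. With the transcripts summed, the fitted difference of Sting1 in cerebellum was 1.01 on the log2 scale.

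In the forebrain, which the choice of Sting1 did not use, CD and WT libraries overlapped. Sting1 levels in WT hippocampus were 8.31, 10.2 and 10.9 cpm, and in CD hippocampus 11.6, 13.3, 10.4 and 10.03 cpm, the first of these being mouse m118. In WT cortex they were 13.7, 8.46, 13.2 and 12.3 cpm, and in CD cortex 9.94, 8.20, 8.55 and 13.8 cpm. The CD minus WT log2 difference was 0.21 (SE 0.18) in hippocampus and −0.24 (SE 0.22) in cortex, and Benjamini-Hochberg adjustment of the p of edgeR's quasi-likelihood test gave adjusted p = 0.998 and 1. Without the library of mouse m118 the hippocampal difference was again 0.21 (SE 0.20, adjusted p = 0.998). Leaving out each library in turn, it ran from 0.10 without WT mouse m162 to 0.29 without WT mouse m244 in hippocampus, and from −0.44 without CD mouse m242 to −0.14 without CD mouse m138 in cortex. Averaged over both regions by limma-voom, in which libraries of 1 mouse were treated as correlated, it was −0.01 (SE 0.16, adjusted p = 1), and again −0.01 without mouse m118. The differences in the 2 regions were in opposite directions, but their own difference of −0.44 (SE 0.29) did not pass the test (adjusted p = 1, edgeR). With each hippocampus or cortex library left out in turn, that of mouse m118 among them, it ran from −0.64 to −0.34. Whether the cerebellar difference differs from the forebrain ones was not tested, because it chose the gene.

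Ordered by mean level, Sting1 ran from WT cortex (11.9 ± 2.38 cpm, SD, n = 4) over CD hippocampus (11.3 ± 1.47 cpm, n = 4), CD cerebellum (10.2 cpm), CD cortex (10.1 ± 2.57 cpm, n = 4) and WT hippocampus (9.82 ± 1.36 cpm, n = 3) to WT cerebellum (4.58 cpm). The first 5 groups overlapped with one another, and WT cerebellum was the group whose libraries all lay below those of the other 5.

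**Figure D1:**
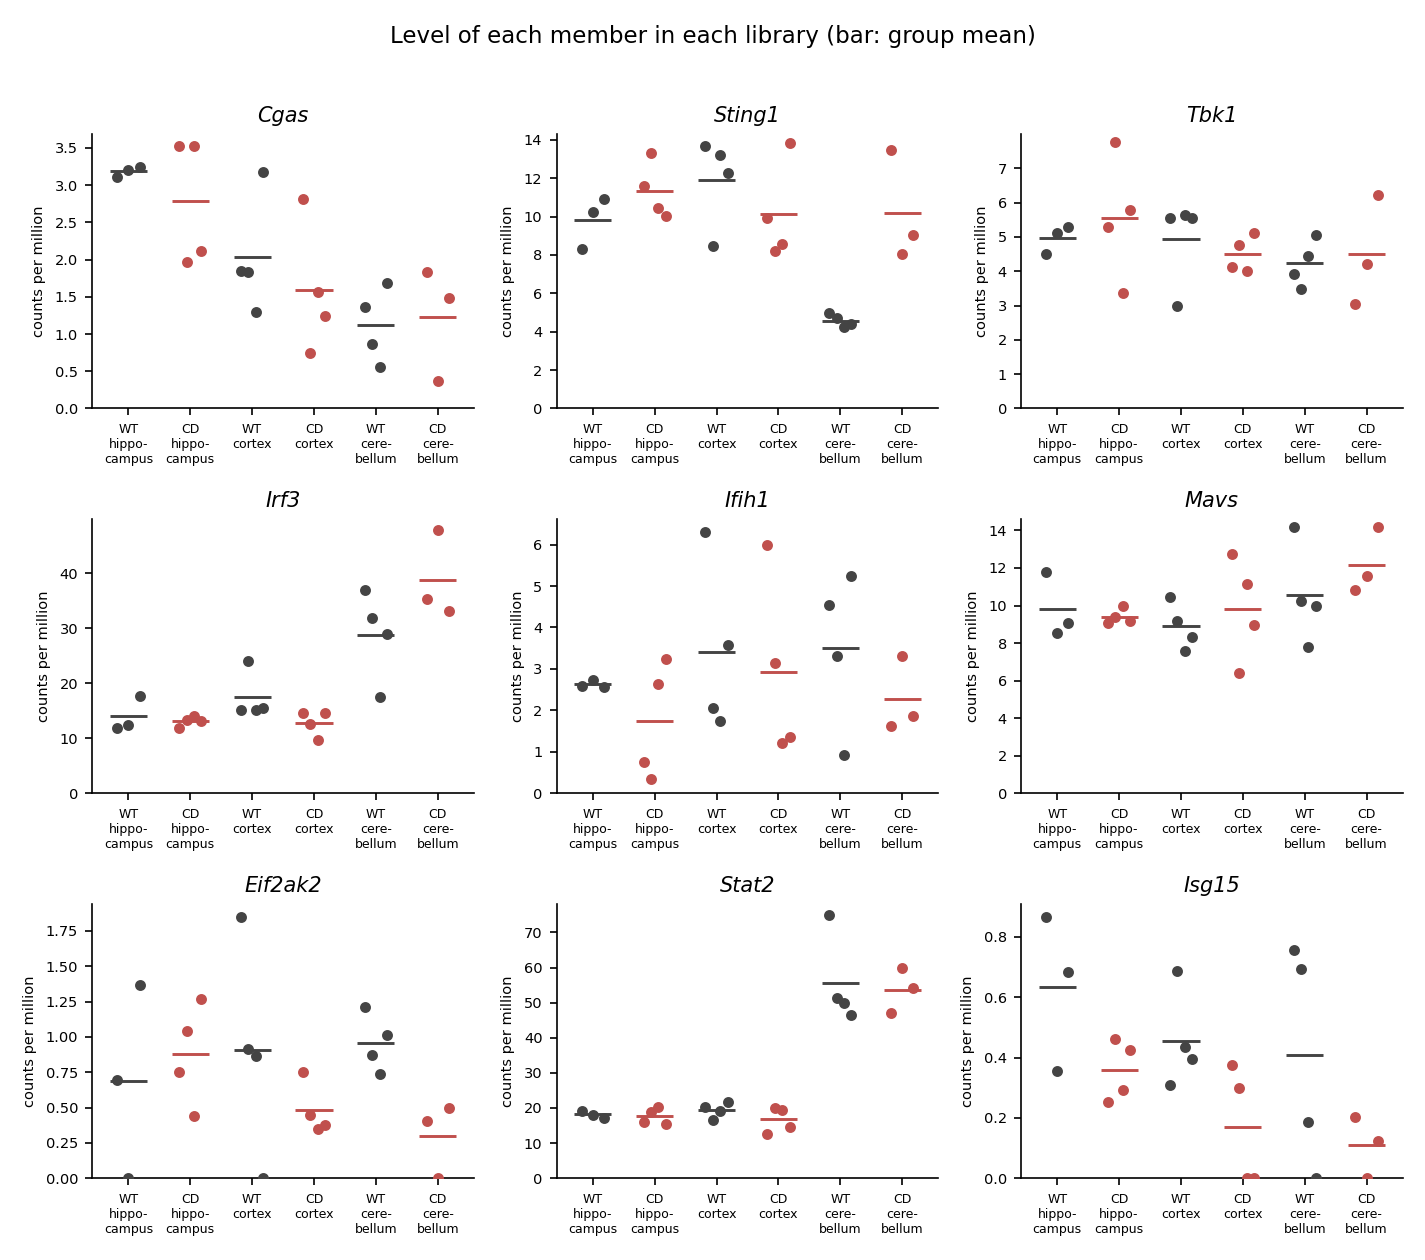
Level of each of the 9 members in cpm (vertical axis, from 0, scale differing by gene) in each library (points, WT dark and CD red) of the 6 groups, with the group mean as a bar. Stat2 and Irf3 are highest in cerebellum, and the 4 WT cerebellum points of Sting1, between 4.25 and 4.99 cpm, lie below its other points.

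Cgas, the DNA sensor upstream of Sting1, was rare and graded between regions. Its 257 counts over the 22 libraries were too few for the filter of at least 5 cpm in 2 libraries. Its level was 2.96 ± 0.65 cpm (SD, n = 7) in hippocampus, 1.82 ± 0.81 cpm (n = 8) in cortex and 1.17 ± 0.57 cpm (n = 7) in cerebellum. Every hippocampus library, the lowest at 1.97 cpm, lay above every cerebellum library, the highest at 1.83 cpm. In a fit without the filter, Cgas was lower in cerebellum than in hippocampus, with a log2 difference of −1.29 (SE 0.34, adjusted p = 0.000914, edgeR's quasi-likelihood test), at counts of 2 to 12 per cerebellum library. In that fit 36.6% of 22927 genes were called at an adjusted p below 0.05. The difference between hippocampus and cortex, −0.75 (SE 0.32), did not pass (adjusted p = 0.0856). The 3 WT hippocampi lay between 3.12 and 3.25 cpm and the 4 CD hippocampi between 1.97 and 3.53 cpm, with a CD minus WT difference of −0.22 (SE 0.37, adjusted p = 0.96), and of −0.32 (SE 0.40, adjusted p = 0.931, edgeR) without mouse m118.

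Tbk1, the kinase shared by both arms, had group means close to one another. They lay between 4.23 ± 0.68 cpm (SD, n = 4) in WT cerebellum and 5.55 ± 1.80 cpm (n = 4) in CD hippocampus, and single libraries between 2.97 and 7.75 cpm. Its log2 differences between regions were −0.16 (SE 0.20), −0.26 (SE 0.20) and −0.10 (SE 0.20) for cortex minus hippocampus, cerebellum minus hippocampus and cerebellum minus cortex, none past the threshold (adjusted p = 0.561, 0.271 and 0.689, edgeR's quasi-likelihood test). For CD minus WT they were 0.17 (SE 0.29) in hippocampus, 0.20 (SE 0.32) there without mouse m118, and −0.12 (SE 0.28) in cortex. In cerebellum the value was 0.13, and it was −0.21 without CD mouse m242.

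Irf3, the transcription factor at the end of the pathway, was higher in cerebellum than in the forebrain. The 7 cerebellum libraries had 17.6 to 47.9 cpm (33.0 ± 9.11, SD), the hippocampus libraries 11.8 to 17.6 cpm (13.5 ± 1.98, n = 7) and the cortex libraries 9.60 to 24.02 cpm (15.1 ± 4.09, n = 8). Only WT mouse m240, the lowest cerebellum, reached into the range of the forebrain. Cerebellum exceeded hippocampus by 1.30 (SE 0.15) on the log2 scale (adjusted p = 6.26e-08) and cortex by 1.16 (SE 0.15, adjusted p = 2.28e-07, edgeR's quasi-likelihood test). In WT libraries alone the difference from cortex was 0.72 (SE 0.22, adjusted p = 0.0134), below 2-fold, and in CD libraries alone 1.59 (SE 0.17, adjusted p = 6.17e-07). The gene overlaps Bcl2l12 on the opposite strand at its 5′ side in the GENCODE annotation, and whether the counting used the strand is not given in the sources used here.

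In cortex, Irf3 was the 1 of the 9 members whose genotypes did not overlap. WT libraries had 15.1, 24.02, 15.2 and 15.5 cpm, and CD libraries 14.6, 12.5, 9.60 and 14.6 cpm. All CD values were thus below all WT values, as for 1.15% of the 9924 genes tested in cortex. That share counts genes lower in CD only, and the larger share in either direction is not given here. The CD minus WT difference was −0.45 (SE 0.20) on the log2 scale, with an unadjusted p of 0.0429 and adjusted p = 1 by edgeR's quasi-likelihood test, so it did not pass the correction. It was −0.25 without WT mouse m164, which stood apart at 24.02 cpm, and its unadjusted p was then 0.23. In hippocampus the difference was −0.09 (SE 0.18), and −0.05 (SE 0.19) without the CD library of mouse m118. It was 0.10 without WT mouse m244, the highest hippocampus library at 17.6 cpm and the one with the most choroid plexus RNA, whose part in the value was not tested. In cerebellum CD libraries had 35.3, 47.9 and 33.0 cpm and WT libraries 36.9, 31.8, 17.6 and 28.9 cpm, a description of overlapping groups with a fitted difference of 0.42. With each cerebellum library left out in turn, that difference ran from 0.24 to 0.56.

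Ifih1, the gene of the RNA sensor MDA5, spread widely between mice. It was between 0.35 and 3.25 cpm in hippocampus, 1.22 and 6.31 cpm in cortex and 0.92 and 5.23 cpm in cerebellum. In hippocampus the WT libraries were close together, at 2.60, 2.73 and 2.56 cpm, and the CD libraries wide apart, at 0.75, 0.35, 2.64 and 3.25 cpm, the first and the second of these from 3 counts each. Averaged over hippocampus and cortex, Ifih1 was −0.74 (SE 0.47) in CD minus WT, and −0.69 (SE 0.48) without the hippocampus of mouse m118, both with adjusted p = 1 in limma-voom. It did not differ past the threshold between any pair of regions, with log2 differences of 0.55 (SE 0.42), 0.38 (SE 0.44) and −0.17 (SE 0.42) (adjusted p = 0.345, 0.477 and 0.741, edgeR's quasi-likelihood test).

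Mavs, the adaptor of the RNA sensors, had group means from 8.89 ± 1.23 cpm (SD, n = 4) in WT cortex to 12.2 ± 1.76 cpm (n = 3) in CD cerebellum. CD minus WT was −0.05 (SE 0.18) in hippocampus, −0.03 (SE 0.20) there without mouse m118 and 0.12 (SE 0.23) in cortex, all with adjusted p at or above 0.998 in edgeR's quasi-likelihood test. Cerebellum minus cortex was 0.29 (SE 0.15, adjusted p = 0.0992), and this moved to 0.0419 without CD cortex of mouse m118 and to 0.0465 without WT cerebellum of mouse m240. Cerebellum minus hippocampus was 0.25 (SE 0.15, adjusted p = 0.157).

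Eif2ak2, the PKR gene, was near the limit of what these libraries can count. It had 97 counts over 22 libraries, 0 to 12 per library, with group means from 0.30 ± 0.26 cpm (SD, n = 3) in CD cerebellum to 0.96 ± 0.20 cpm (n = 4) in WT cerebellum. WT cerebella had 8, 5, 4 and 6 counts and CD cerebella 2, 0 and 4, so that all CD values were lower on the cpm scale, a description only. In hippocampus, with 4, 0 and 8 WT counts and 3, 9, 3 and 9 CD counts, and in cortex, with 12, 4, 4 and 0 against 4, 3, 2 and 3, the genotypes overlapped. Without the filter the CD minus WT differences were 0.47 (SE 0.77) and −1.05 (SE 0.78) on the log2 scale (adjusted p = 0.96 and 0.899, edgeR). The first was 0.54 (SE 0.76, adjusted p = 0.952, edgeR) without mouse m118. In the GENCODE annotation its RefSeq model spans a same-strand gene model, Gm6548, so reads may be shared.

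Stat2, which carries the interferon signal into the nucleus, showed the clearest regional difference of the members. Cerebellum libraries had 75.0, 51.4, 49.9 and 46.6 cpm in WT and 47.1, 59.8 and 54.3 cpm in CD. Hippocampus libraries had 15.4 to 20.4 cpm and cortex libraries 12.6 to 21.8 cpm, so that each cerebellum library was above every forebrain library. Groups did not overlap in 35.9% and 32.9% of 11133 genes for cerebellum against hippocampus and against cortex. Cerebellum exceeded hippocampus by 1.61 (SE 0.12, adjusted p = 1.94e-11) and cortex by 1.61 (SE 0.12, adjusted p = 8.79e-12) on the log2 scale by edgeR's quasi-likelihood test, about 3.04-fold in each case. Without WT mouse m162, whose cerebellum was the highest, the difference from hippocampus was 1.52. The genotypes overlapped in all 3 regions, with CD minus WT differences of −0.03 (SE 0.15) in hippocampus, 0.01 (SE 0.16) there without mouse m118, −0.21 (SE 0.18) in cortex and −0.05 in cerebellum.

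Isg15, the interferon target, was at 0 to 5 counts in every library. WT hippocampi had 5, 3 and 4 counts and CD hippocampi 1, 4, 2 and 3. WT cortices had 2, 3, 2 and 1 counts, and CD cortices 2, 2, 0 and 0. Over both regions this came to 20 counts in 7 WT libraries (0.53 ± 0.21 cpm, SD) and 14 counts in 8 CD libraries (0.26 ± 0.18 cpm). Without the filter, CD minus WT averaged over these regions was −1.12 (SE 0.47) with an unadjusted p of 0.0252, which 4.43% of 21885 genes shared at the threshold of 0.05, and adjusted p = 0.914 in limma-voom. Without the hippocampus of mouse m118 it was −1.12 again (SE 0.49, adjusted p = 0.721). In cerebellum WT libraries had 5, 4, 1 and 0 counts and CD libraries 1, 0 and 1. In the 4 libraries without an Isg15 count, a count of 0 allows up to 3 counts. These corresponded to 0.35 to 0.60 cpm without TMM scaling.

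Between regions, 6 of the 9 members passed the filter, and 3 (Cgas, Eif2ak2 and Isg15) did not. Sting1 is left out of the counts for cerebellum, because its cerebellum values chose it. Of the other 5, Irf3 and Stat2 passed the study's thresholds, an adjusted p below 0.01 and more than 2-fold. Both were higher in cerebellum than in hippocampus and than in cortex. That was 2 of 5 in each case, against 9.77% and 9.71% of all genes tested that were higher in cerebellum. Counted in either direction it was also 2 of 5, against 22.8% and 22.6% of all genes. With an adjusted p below 0.05 at any fold, again in either direction, 2 of 5 passed, against 61.4% and 61.9% of all genes. None of the 6 differed between hippocampus and cortex with the study's thresholds, where 8.42% of genes did, nor at an adjusted p below 0.05, where 35.5% did. The unadjusted p was above 0.05 for each of them. The median log2 difference of the 5 was 0.38 for cerebellum minus hippocampus and 0.29 for cerebellum minus cortex, and over all genes tested 0.02 in both.

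For Sting1 the differences between cerebellum and forebrain are a description, without a test. Averaged over both genotypes, the fitted log2 difference was −0.63 (SE 0.16) for cerebellum minus hippocampus and −0.69 (SE 0.15) for cerebellum minus cortex. In WT libraries alone the differences were −1.10 and −1.38, and in CD libraries alone −0.16 and −0.01.

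**Figure D2:**
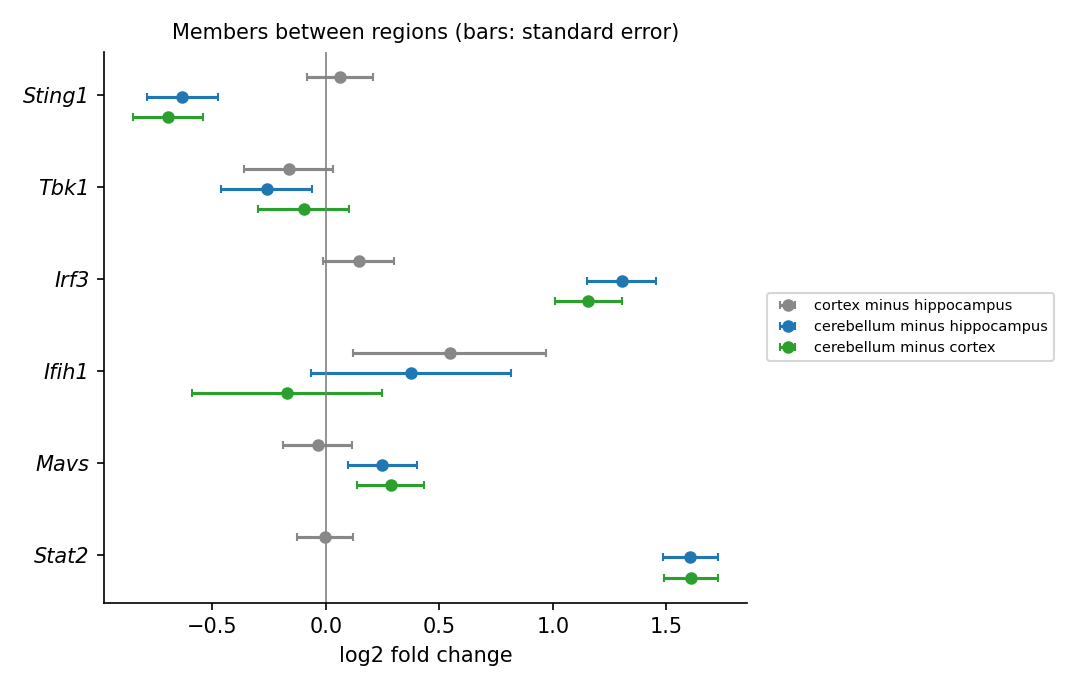
Log2 fold change between regions (horizontal axis) of the 6 members that passed the filter (rows), as points with standard errors, grey for cortex minus hippocampus, blue for cerebellum minus hippocampus and green for cerebellum minus cortex. Stat2 (1.61 in both) and Irf3 (1.30 and 1.16) lie to the right, and Sting1 (−0.63 and −0.69), whose cerebellum values chose it, to the left.

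Between genotypes, none of the members tested passed the study's thresholds in hippocampus or cortex, in edgeR with or without the filter or in DESeq2. Over all genes that passed the filter, edgeR called none in hippocampus, cortex or cerebellum, and DESeq2 called 2, 1 and 0. Without the filter edgeR called 6, 3 and 10 genes. One of these 10 was Ifit1, which is not a member and was named after its values were seen. It stood at −1.18 (adjusted p = 6.84e-08, edgeR) without the filter and −1.19 (adjusted p = 0.981) with it. Without WT mouse m162 the values of Ifit1 were −0.35 (adjusted p = 0.896) and −0.35 (adjusted p = 0.999, edgeR). In cerebellum 4.55% of the genes that passed the filter had an unadjusted p below 0.05. In hippocampus 5 members were tested and none had an unadjusted p below 0.05, where 4.22% of all genes did. In cortex 1 of 6 did, Irf3, against 3.32% of all genes, and averaged over both regions none of 6 did, against 3.91%. No member had genotypes that did not overlap in hippocampus, where 5.43% of genes did. In cerebellum, the contrast that chose the set, 2 of the 9 members had groups that did not overlap, Sting1 and Eif2ak2. The share among genes that passed the filter was 5.35%. Eif2ak2, at 0 to 8 counts per cerebellum library, did not pass it.

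**Figure D3:**
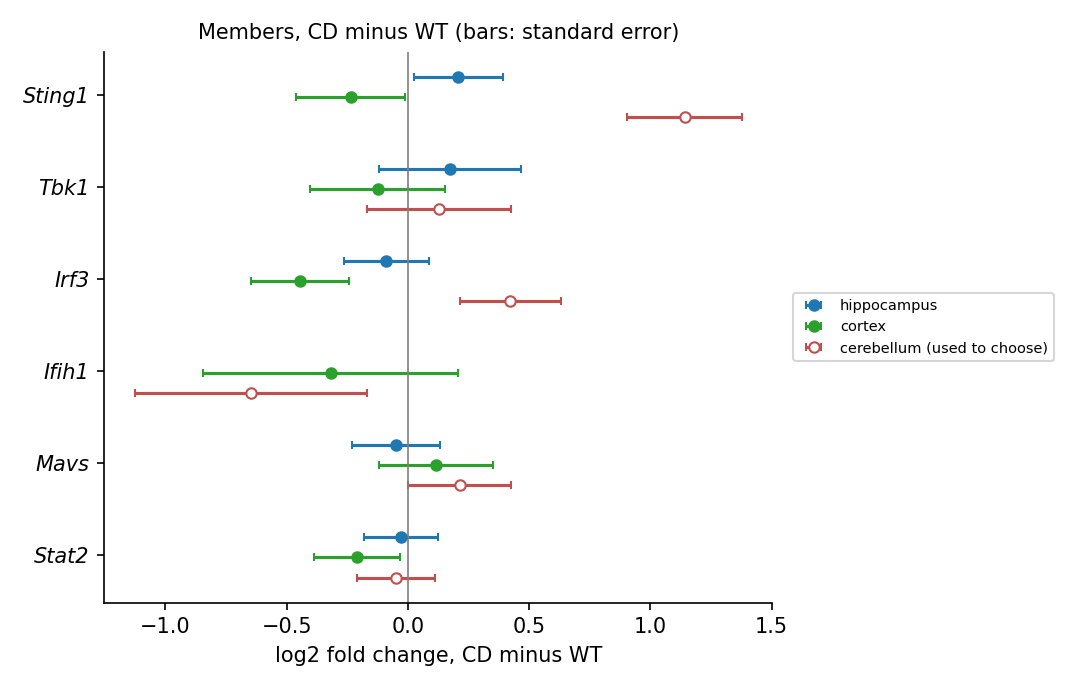
Log2 fold change of CD minus WT (horizontal axis) of the members that passed the filter (rows), as points with standard errors, blue for hippocampus, green for cortex and open red for cerebellum, the contrast used to choose the set. Sting1 in cerebellum stands at 1.14, while the hippocampus and cortex points lie between −0.45 and 0.21.

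The study's thresholds were passed by 8.42% of all genes between hippocampus and cortex, by 22.8% between hippocampus and cerebellum and by 22.6% between cortex and cerebellum, and the counts of the pathway lists stand beside these shares. Of 24 genes for DNA sensing and its regulators, 17 were tested, and 1 passed them in any of these contrasts, Enpp1, a phosphodiesterase that degrades the STING1 ligand. Enpp1 was higher in cerebellum than in cortex by 1.38 (SE 0.25, adjusted p = 3.39e-05, edgeR's quasi-likelihood test). Of 26 genes for RNA sensing, 20 were tested, and again 1 passed, Dhx58, which encodes LGP2, a regulator of MDA5. Dhx58 was higher in cerebellum than in hippocampus by 1.74 (SE 0.25, adjusted p = 1.38e-06) and than in cortex by 1.77 (SE 0.25, adjusted p = 8.8e-07). None of the 6 genes tested of the 11 of the NF-kB branch passed these thresholds between regions.

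In interferon receptor signalling, 2 of 13 genes tested (18 listed) were lower in cerebellum than in hippocampus and than in cortex beyond the thresholds, as were 13% and 12.9% of all genes. Irf8, a transcription factor of microglia and other myeloid cells, had a log2 difference from hippocampus of −1.54 (SE 0.17, adjusted p = 2.58e-08), and Irf1, which interferon gamma induces, of −1.18 (SE 0.18, adjusted p = 2.79e-06, edgeR). Among interferon-stimulated genes, 23 of 45 were tested, and 1, 1 and 5 passed the thresholds in the 3 contrasts. Herc6, a ligase that attaches ISG15 to proteins in the mouse, was higher in cortex than in hippocampus by 2.44 (SE 0.34, adjusted p = 3.02e-06). H2-D1, an MHC class I heavy chain, was higher in cerebellum than in hippocampus by 1.90 (SE 0.16, adjusted p = 2.14e-10). Igtp, an interferon-induced GTPase, had a cerebellum minus cortex difference of −1.16 (SE 0.24, adjusted p = 0.000172), and Ifit3b one of 1.11 (SE 0.26, adjusted p = 0.000829). The Ifit3b value includes the cerebellum of WT mouse m162, at 28.4 cpm. The other WT cerebella had 6.41 to 10.2 cpm and the CD cerebella 7.15 to 9.69 cpm. A value of this contrast without that library is not given here. The medians of the 23 were −0.12, 0.06 and 0.17 for cortex minus hippocampus, cerebellum minus hippocampus and cerebellum minus cortex, and those of all genes −0.01, 0.02 and 0.02.

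Averaged over hippocampus and cortex, interferon-stimulated genes were mostly lower in CD mice, without a call after adjustment. Of the 22 tested there, 18 (81.8%) had a negative CD minus WT difference, against 51.1% of all genes, with a median of −0.23 against −0.0033. Many of these genes were high in the same libraries, as given below, so the 22 signs are not separate observations. An unadjusted p below 0.05 was reached by 3, all lower in CD, against 3.91% of all genes. Without the hippocampus of mouse m118, 17 of 22 were lower, with a median of −0.19. Oasl2, which encodes a member of the oligoadenylate synthetase-like family, had the smallest p. Its levels were 13.4 to 27.2 cpm in WT hippocampus against 7.99 to 15.4 cpm in CD hippocampus, and 12.6 to 17.1 cpm in WT cortex against 9.94 to 10.8 cpm in CD cortex. Oasl2 differed by −0.67 (SE 0.17, unadjusted p of 0.000823, adjusted p = 1, limma-voom) and Herc6 by −0.63 (SE 0.22, unadjusted p of 0.0112, adjusted p = 1). Without the hippocampus of mouse m118 these were −0.68 and −0.63, and without that of WT mouse m244 Oasl2 was −0.54 and Herc6 −0.62.

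In the other lists the counts of genes lower in CD were 7 of 14 for DNA sensing (median −0.0039), 12 of 18 for RNA sensing (median −0.05), 5 of 13 for receptor signalling (median 0.03) and 5 of 6 for the NF-kB branch (median −0.12). In DNA sensing, Samhd1, a phosphohydrolase that lowers the dNTP pool, differed by −0.34 (SE 0.15, unadjusted p of 0.0295) and Prkdc, a DNA-dependent kinase, by −0.12 (SE 0.13). In RNA sensing, Rnf135, a ligase for RIG-I, differed by −0.74 (SE 0.24, unadjusted p of 0.00611) and Eif2s1, which encodes the translation factor that PKR phosphorylates, by 0.20 (SE 0.12). In receptor signalling, Irf8 differed by 0.43 (SE 0.17, unadjusted p of 0.0241) and Irf2 by −0.24 (SE 0.15). In the NF-kB branch, Nfkbia, the inhibitor of NF-kB, differed by −0.13 (SE 0.09) and Ikbkb, its kinase, by −0.15 (SE 0.12). Each of these 8 genes had an adjusted p of 1 in limma-voom. Without the hippocampus of mouse m118, Samhd1 was −0.35, Rnf135 −0.70 and Irf8 0.50, and without that of WT mouse m244 Samhd1 was −0.27 (unadjusted p of 0.0896).

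The lower values of the interferon-stimulated genes rested in part on single WT libraries. The cerebellum of WT mouse m162 was highest of the 4 WT cerebella in 17 of the 23 genes, where it was highest in 24.9% of all genes. Ifit1, which binds foreign RNA, had 80.5 cpm there against 12.5 to 26.8 cpm in the other WT cerebella and 11.8 to 17.6 cpm in CD cerebella. Ifit3, its partner, had 132.5 cpm against 31.6 to 45.3 cpm in the other WT and 26.1 to 48.2 cpm in CD cerebella. Both promoters carry the element printed above, as did 17 of the 36 interferon-stimulated genes with a promoter sequence (47.2%). Oasl2, at 33.9 cpm against at most 18.4 cpm in the other WT cerebella, had no element in its window. In Ifitm3, at 85.5 cpm against at most 58.9 cpm, it began 2 bases after the start. The part of the element in these levels was not tested. Stat2 was highest in the same library, that of WT mouse m162, at 75.0 cpm against 46.6 to 51.4 cpm in the other WT cerebella. Sting1 was also highest there, at 4.99 cpm against 4.25 to 4.69 cpm. These Sting1 values are among those that chose the gene and are a description. With that library the median CD minus WT difference of the 22 interferon-stimulated genes tested in cerebellum was −0.37, and without it −0.07 over 20 genes.

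In hippocampus, the library of WT mouse m244 was the highest of the 3 WT libraries in 17 of the 23 genes, where it was highest in 34.7% of all genes. Among CD hippocampi, the library of mouse m190 was likewise the highest in 17 of the 23, against 24.6% of all genes. These were also the libraries with the most choroid plexus RNA of their groups. The 7 choroid plexus markers summed to 8324 cpm in WT mouse m244 against 155 and 296 cpm in the other WT hippocampi, and to 4213 cpm in CD mouse m190 against 134, 561 and 1231 cpm in the other CD hippocampi. The part of choroid plexus RNA in the levels of the interferon-stimulated genes was not tested. In the cerebellum of WT mouse m162 these markers summed to 61.4 cpm, against 63.4 to 124 cpm in the other WT cerebella.

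Of the 21 interferon-stimulated genes tested in hippocampus, 19 were lower in CD with a median of −0.27, where 51.2% of all genes were lower. Of these 21, 4 had an unadjusted p below 0.05, against 4.22% of all genes. Without WT mouse m244, 10 of 20 were lower, the median was −0.02 and none had an unadjusted p below 0.05. Without CD mouse m190, 20 of 20 were lower, with a median of −0.36. Without both of these libraries, 15 of 20 were lower, with a median of −0.15, and 2 had an unadjusted p below 0.05. Without the CD library of mouse m118, 18 of 21 were lower, with a median of −0.33. In cortex, 16 of 21 were lower, against 51.3% of all genes, with a median of −0.20. There an unadjusted p below 0.05 (edgeR) was reached by 1 gene higher and 2 genes lower in CD, against 3.32% of all genes. Averaged over hippocampus and cortex but without the hippocampus of WT mouse m244, 16 of 22 were lower and the median was −0.15.

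**Figure D4:**
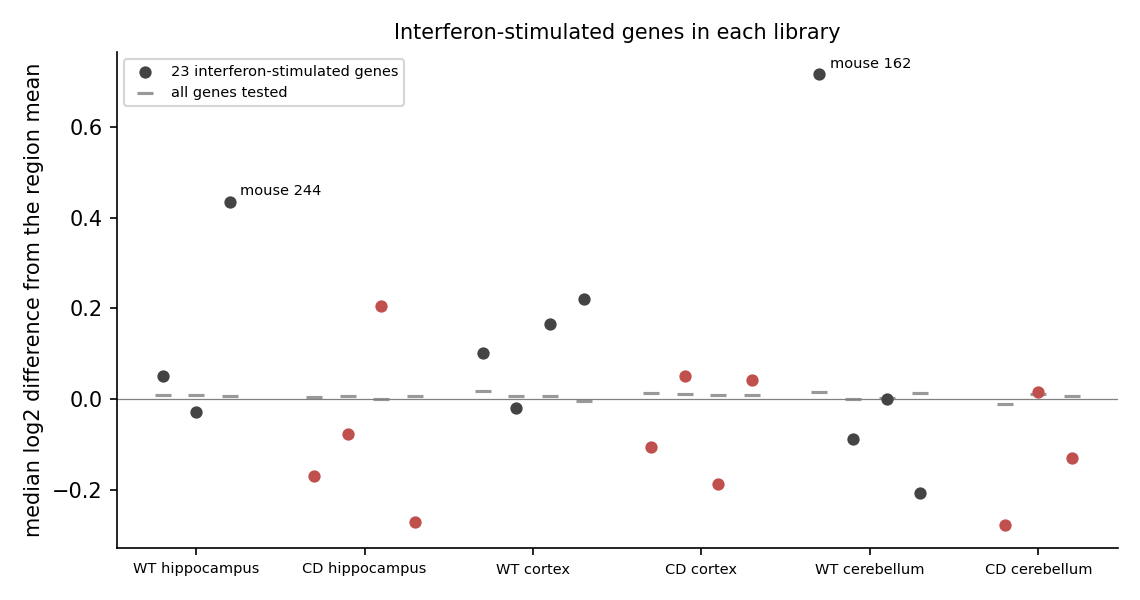
Median, over the 23 interferon-stimulated genes that passed the filter, of the log2 level minus the mean of the region (vertical axis) in each library of the 6 groups (points, WT dark and CD red), with the median over all genes tested as grey dashes. The cerebellum of WT mouse m162 stands at 0.72 and the hippocampus of WT mouse m244 at 0.44, and all other libraries lie between −0.28 and 0.22.

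Markers of microglia, a main source of STING1 in brain, differed between regions, and none was past the threshold between genotypes. The 12 markers summed to 812 to 976 cpm in hippocampus, 688 to 950 cpm in cortex and 277 to 341 cpm in cerebellum. All 11 that could be tested were lower in cerebellum than in hippocampus beyond the study's thresholds, with a median log2 difference of −1.52, and than in cortex, with −1.40. In cerebellum the sums were 277 to 341 cpm in WT and 323 to 336 cpm in CD, inside the WT range. No microglia marker had an unadjusted p below 0.05 between genotypes in any region, and the median CD minus WT difference of the 9 tested in cerebellum was 0.02. Endothelial markers summed to 350 to 469 cpm over all libraries. Of the 8 endothelial markers tested, 1 in hippocampus, 2 in cortex and 1 in cerebellum had an unadjusted p below 0.05 between genotypes (edgeR), against 4.22%, 3.32% and 4.55% of all genes. The part of cell composition in the Sting1 levels was not tested.

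**Figure D5:**
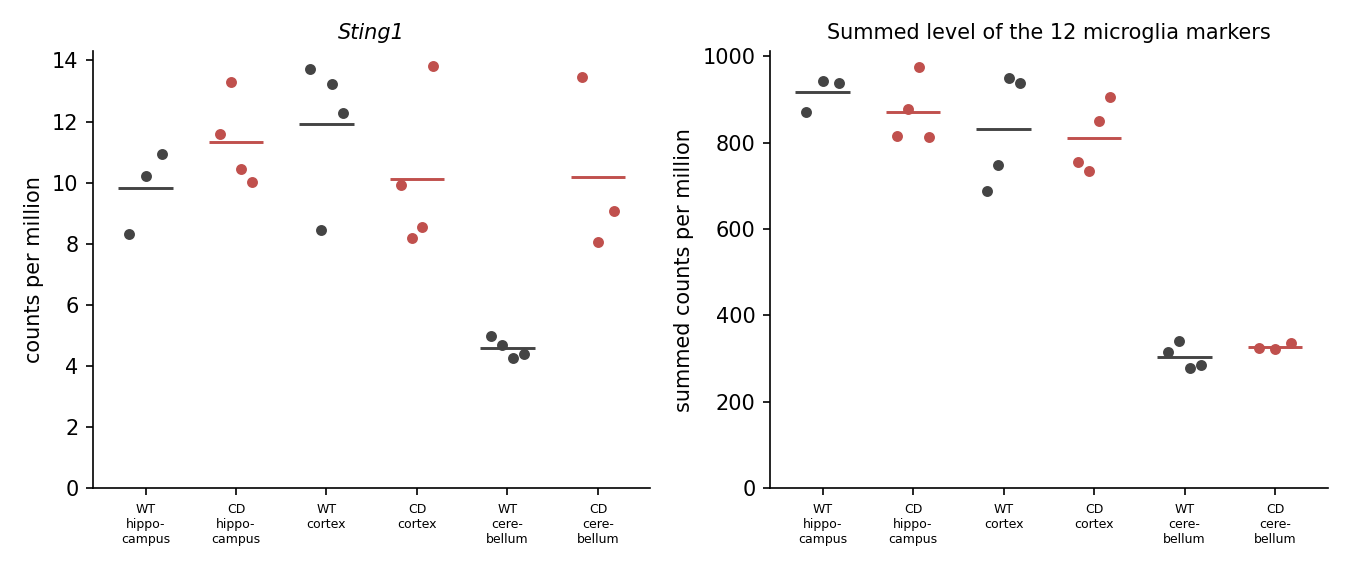
Sting1 level in cpm (left) and the summed cpm of the 12 microglia markers (right) in each library (points, WT dark and CD red) of the 6 groups, both axes from 0, with group means as bars. Microglia sums are 277 to 341 cpm in cerebellum of either genotype, while Sting1 is 4.25 to 4.99 cpm in WT and 8.07 to 13.5 cpm in CD cerebellum.

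The genes whose pattern over the 22 libraries was nearest to that of Sting1 were sought among 11132 genes by the root mean square difference of log2 levels centred on the gene mean. They were Csnk1g2 (0.33), Mfsd14a (0.33), Lbh (0.33), Mertk (0.34) and Map3k10 (0.34), where the centred levels of Sting1 themselves had a root mean square of 0.51 and the median gene differed from it by 0.64. None of the 5 was among the 12 microglia markers used here, and whether microglia express them was not examined. Mertk, a receptor for the clearance of dying cells, had a mean of 42.3 cpm in WT cerebellum, 55.8 cpm in CD cerebellum and 64.2 to 71.5 cpm in the forebrain groups. The cerebellum libraries of both genotypes are among the 22, so this likeness includes the values that chose Sting1 and is a description.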

How the data were processed

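CelSeq2 3′ RNA-seq gave 22 libraries. The authors deposited raw counts per RefSeq transcript; their processing notes name STAR, edgeR and the mm10 build, and their methods name the End Sequence Analysis Toolkit as the counter. Of 85964 transcripts, 69280 (80.6%, with 81.4% of the counts) matched a symbol in RefSeq GRCm38, and 1 transcript, that of the highest total, stood for a gene. The filter asked for 5 cpm or more in 2 or more libraries. Counts were scaled by TMM, and edgeR 4.0.16 (R 4.3.3) ran the quasi-likelihood fits, within a region for genotype and over 6 group means for regions. The genotype average over hippocampus and cortex used limma 3.58.1 (voom) with mouse as a random block. Thresholds were the study's (FDR below 0.01, 2-fold), with an FDR below 0.05 or an unadjusted p below 0.05 as a second rule. On simulated counts with 200 changed genes the fits were checked. DESeq2 1.42.0, RLE scaling, no filter, the filter over all libraries, summed transcripts, each library left out and a mouse block were alternatives.

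The labels tie each mouse number to its regions, so the same animal gave the same-numbered libraries. Deviations from group means correlated at 0.08 on average between hippocampus and cortex of a mouse (7 pairs, from 0.01 to 0.18), at 0.05 between hippocampus and cerebellum (6 pairs) and at −0.0036 between cortex and cerebellum (7 pairs).

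The members and gene lists were chosen with earlier results of these data known. Genes named from the lists were those past the study's thresholds between regions, up to 4 per list with the greatest change. To these came the 2 per list with the smallest p in the averaged genotype comparison. Ifit1 and Ifit3 were added after their values were seen. Lgals3bp, Ifi27 and Ifitm3, examined for outlying libraries, were also outside this rule. The series' own text gives 1 library fewer per group than the table holds, and all 22 were used. Within a region each library is 1 animal, so p-values for genotype there measure the spread between animals, with 3 or 4 per group. The edgeR p-values between regions treat the 22 libraries of 8 mice as independent, except in the alternative with a mouse block. The same holds for the genotype difference between regions. Floors and counting limits cover counting error only.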

Additional observations from a re-analysis of the deposited data

Results flagged for a closer look

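Among 120 groups of 4 libraries examined, 10 had a library far from the others, where chance gives about 6. Beside members and named genes, these groups covered Ifit1, Ifit3, Lgals3bp, Ifi27 and Ifitm3, which the naming rule had not picked. The 10 can therefore not be compared with the number given by chance. Tbk1 was low in WT cortex of mouse m164 (2.97 cpm against 5.54 to 5.64 cpm), the library in which Irf3 was high (24.02 cpm against 15.1 to 15.5 cpm). In WT cerebellum of mouse m162, Stat2 (75.0 cpm against 46.6 to 51.4 cpm), Ifit3 (132.5 cpm against 31.6 to 45.3 cpm), Ifit3b (28.4 cpm against 6.41 to 10.2 cpm), Lgals3bp (88.3 cpm against 22.6 to 33.7 cpm) and Ifi27 (16.0 cpm against 5.55 to 7.26 cpm) stood high together. In WT mouse m244, Enpp1 (3.17 cpm against 1.54 to 1.74 cpm) and Nfkbia (68.6 cpm against 52.4 to 53.3 cpm) were high in cortex, and Irf8 was high in cerebellum (14.9 cpm against 9.52 to 9.99 cpm).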

How the results depend on the processing

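Irf3 and Stat2 kept an adjusted p below 0.05 and the higher level in cerebellum in each alternative run. With the mouse as a replicate block, 926, 2549 and 2520 genes passed the study's thresholds for hippocampus against cortex, hippocampus against cerebellum and cortex against cerebellum, and no member's call changed, though Stat2 moved to 0.015 for cortex minus hippocampus. Without the filter on low counts the genes past these thresholds became 6 in hippocampus, 3 in cortex and 10 in cerebellum for genotype, 2 for the genotype difference between regions and 1471 for hippocampus against cortex. Those with an unadjusted p below 0.05 became 930, 875 and 1070 in these regions, 877 for the difference between regions and 969 averaged over hippocampus and cortex, with about 2 times as many genes tested, and Stat2 was 0.0083 for cortex minus hippocampus. DESeq2 called 2 genes in hippocampus and 1 in cortex, none of them a member. In WT libraries alone, an alternative chosen after seeing the data, 2230 genes had an adjusted p below 0.05 between hippocampus and cortex, and Stat2 was 0.085 there. In CD libraries alone, chosen likewise, the same contrast gave −0.16 for Sting1, −0.031 for Irf3 and 0.046 for Mavs, and cerebellum minus cortex gave 0.031 for Tbk1. Summing transcripts gave −0.0066 for Sting1 in cortex minus hippocampus, and Tbk1 and Ifih1, and Mavs for genotype in hippocampus, then did not pass the filter and gave no value.

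Leaving out 1 library at a time, the genes past the thresholds for genotype were 0 to 1 in cortex, the 1 appearing without CD mouse m190, and 0 to 1 in cerebellum, without CD mouse m242. An unadjusted p below 0.05 was reached by 304 to 650 genes in cerebellum, the fewest without CD mouse m118, and by 290 to 657 averaged over hippocampus and cortex, the most without WT mouse m162. Small differences changed sign. For CD minus WT they ran in hippocampus from −0.051 to 0.36 for Tbk1, from −0.19 to 0.10 for Irf3, from −0.14 to 0.10 for Mavs and from −0.10 to 0.038 for Stat2. In cortex Mavs ran from −0.028 to 0.28. Averaged over both regions, Sting1 ran from −0.070 to 0.040, Tbk1 from −0.10 to 0.20 and Mavs from −0.085 to 0.12, and the genotype difference between regions of Ifih1 from −0.32 to 0.85. Cortex minus hippocampus ran from −0.037 to 0.13 for Sting1, from −0.11 to 0.044 for Mavs and from −0.054 to 0.052 for Stat2. Cerebellum minus cortex ran from −0.26 to 0.0030 for Tbk1 and from −0.34 to 0.13 for Ifih1. Leaving out WT hippocampus m244, CD hippocampi m118 and m190 and WT cerebellum m162 for the gene lists and named genes was chosen after seeing the data. None of these differences of members passed the threshold, and the cause was not tested. With 13.8 counts standing for 5 cpm in the shallowest library, Cgas, Eif2ak2 and Isg15 did not pass the filter. Their CD minus WT differences above come from fits without it and rest on few counts.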
